A study of Mus musculus with 12 samples.

Results

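The clustered protocadherin genes were examined in the dorsal raphe (DR) of mice lacking STAT3 in serotonergic cells. They were taken as every row of the count tables whose symbol starts with Pcdha, Pcdhb or Pcdhg, which gave 59 of 24421 gene rows: 15 of the alpha, 22 of the beta and 22 of the gamma cluster. In GENCODE's annotation of GRCm38 all of those that matched lie on the plus strand of chromosome 18. By RefSeq's coordinates the alpha genes lie between 36930285 and 37188897, apart from the row Pcdha7-g, which runs on to 37841873. The beta genes lie between 37264998 and 37521419 and the gamma genes between 37661775 and 37841873.

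RNA was sequenced from 12 mice of the strain C57BL/6 x 129, with 1 library per animal. The 8 STAT3 KO mice (also KO below, 4 females and 4 males) carried Sert Cre/+ and Stat3 fl/fl. Their 4 littermate controls (2 females and 2 males) carried Sert Cre/+ and Stat3 fl/+, so that every animal had the Cre allele and at least 1 floxed Stat3 allele. Adult mice entered the experiments at 8 to 16 weeks of age. Cre is made from the serotonin transporter locus, and the deletion is therefore restricted to cells that use or once used this gene, whereas the sequenced tissue was a square piece cut below the aqueduct with all of its cell types. A lower level in such tissue cannot be told apart from fewer cells that make the transcript.

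Clustered protocadherins are cadherin-like proteins of the neuronal surface that bind only their own kind on the opposite membrane. Each neuron transcribes its own small set of them from promoters chosen largely at random with the help of CTCF and cohesin, and the resulting combinations let a neuron tell its own branches from those of its neighbours. In the alpha and gamma clusters a variable first exon, which encodes the whole extracellular part, is spliced to constant exons that all genes of the cluster share, whereas beta genes consist of a single exon and have no constant exons. The last genes of the alpha and gamma clusters, called C-type (Pcdhac1, Pcdhac2, Pcdhgc3, Pcdhgc4 and Pcdhgc5), are regulated apart from the others. Among them Pcdhac2 is known for its role in spacing the axons of serotonergic neurons evenly over their targets.

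Between 24379588 and 29645210 reads were counted on genes per library, at which depth 3 counts equal 0.101 to 0.124 CPM (normalised counts per 1000000 counts on genes). This floor covers counting error only. In controls Stat3 itself was at 66.6 ± 1.49 CPM (SD, n = 4), and in the KO it was at 66.3 ± 2.72 CPM (SD, n = 8). The deletion takes out only some exons of Stat3, and the paper reports less of these in the DR of KO mice by qRT-PCR. The tables do not separate exons or cell types. The 8 serotonergic markers summed to 1532 to 1924 CPM in controls and 1384 to 2043 CPM in KO mice, so the labelled tissue was recovered in all libraries. Marker genes of neighbouring tissue varied by animal. The 7 forebrain excitatory neuron markers summed to 314 CPM in control 4, against 46.5 to 69.6 CPM in the other controls and 35.6 to 108 CPM in KO mice. The 5 choroid plexus markers summed to 221 and 227 CPM in STAT3 KO 16 and STAT3 KO 8, against 8.25 to 12.7 CPM in the other 10 animals. The 5 cerebellar markers reached 401 CPM in STAT3 KO 16 and were at 36 to 222 CPM elsewhere.

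Of the 59 genes, 55 had at least 1 count in every library. Pcdha4, Pcdha6 and Pcdha7 were at 0 counts in all 12 libraries, which allows at most 0.101 to 0.124 CPM in each. A 4th alpha row, Pcdha7-g, had 4 counts in all and was at 0 in 9 of 12 libraries. The other 11 alpha genes had between 6 and 1281 counts per library. The 3 genes at 0 are those that have a second annotated row on top of them. Gm37013, Gm38666 and Pcdha7-g start 41, 6 and 9 bases from the starts of Pcdha4, Pcdha6 and Pcdha7 and run through the beta cluster to the end of the gamma cluster at 37841873. In GENCODE the exons of Pcdha4 and Pcdha6 hold 0 bases that no other gene covers. For Pcdha7 the number came out as 2477. No exons were found for Pcdha7-g, however, so bases that it shares with Pcdha7 were not taken off. Gm37013 had 0 counts and Gm38666 had 2 counts over the 12 libraries. The part of exon sharing in the zeros was not tested, and they are given as listed values and not as levels of these 3 genes.

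Exon sharing also bears on the members that were read. In the alpha genes 48.6% to 100% of the annotated exon bases (median 53.6%) are also in another gene, in the gamma genes 41.7% to 45.5% (median 44.8%), and in the beta genes none apart from 6.88% in Pcdhb22 and 9.67% in Pcdhb21. Each file has a line for reads that fit more than 1 gene, which held 0.507% to 0.562% of the listed reads. That line held 145557 to 185782 reads, 12.6 to 18.3 times the 9313 to 13692 counts of all 59 genes together. How many of those reads came from the constant exons cannot be told from the files. For comparisons between genes, CPM was divided by the length of exon that no other gene shares, on the untested assumption that only reads there were counted, with a median over the annotated genes of 2477.5 bases in alpha, 3714 in beta and 2607 in gamma genes. This could be done for 54 genes, without the 3 at 0 and without Pcdha7-g and Pcdhgb8, for which no exon length was found.

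Per length, C-type genes stood highest. Pcdhgc3, a gamma protocadherin known to promote dendrite branching, had 17.2 ± 2.18 CPM per kb (SD, n = 12 animals), Pcdhac2 had 12.7 ± 1.27 and Pcdhgc4, which is known to keep neurons alive during development, had 9.25 ± 1.45. This order was found in 12 of 12 animals. Pcdhgc3 was 1.35 ± 0.16 times Pcdhac2 (SD, n = 12), with a range of 1.09 to 1.72, and Pcdhac2 was 1.39 ± 0.13 times Pcdhgc4, with a range of 1.11 to 1.59. Pcdhgc4 in turn exceeded the next gene, Pcdhga7, by 1.71 ± 0.20 times, again in 12 of 12 animals. The other C-type genes were lower, with 3.20 ± 1.10 CPM per kb for Pcdhgc5 and 2.77 ± 0.27 for Pcdhac1. Pcdhac2 thus exceeded its neighbour Pcdhac1 by 4.63 ± 0.52 times.

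Among the alpha genes without the C-type pair, the median level was 1.09 CPM per kb over 9 genes. Pcdha9 was highest with 1.70 ± 0.43 CPM per kb (SD, n = 12), followed by Pcdha12 with 1.44 ± 0.23. At the low end, Pcdha1 had 0.532 ± 0.135 and Pcdha8 had 0.160 ± 0.051 CPM per kb. Pcdha8 was read with 6 to 18 counts per library, so its level is the least certain of the alpha genes measured. Pcdhac2 stood 79.5 times above it.

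The beta genes had a median of 1.29 CPM per kb over 22 genes. Pcdhb9 was highest with 4.43 ± 0.44 CPM per kb (SD, n = 12), then Pcdhb20 with 3.14 ± 0.21, Pcdhb12 with 2.89 ± 0.27 and Pcdhb17 with 2.88 ± 0.27. The last pair differed by less than its spread between animals. Pcdhb21 had 0.543 ± 0.129 CPM per kb. Pcdhb1, the first gene of the cluster, had 0.112 ± 0.042 and 4 to 15 counts per library, and was the lowest of all 54 genes. These levels, their median and their order depend on the annotated exon length. With RefSeq's shorter span Pcdhb17 was at 4.10 instead of 2.88 CPM per kb, Pcdhb22 at 2.84 instead of 1.42, Pcdhb14 at 2.76 instead of 1.09 and Pcdhb21 at 0.850 instead of 0.543. Pcdhb21 then lay above Pcdhb4 and Pcdhb6, at 0.737 and 0.830.

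Gamma genes outside the C-type were read at a median of 2.80 CPM per kb over 18 genes. The 12 genes of the gamma-A type had a median of 3.29 CPM per kb, and the 6 measured genes of the gamma-B type had 1.95. Pcdhga7 was highest with 5.41 ± 0.71 CPM per kb (SD, n = 12), followed by Pcdhga6 with 4.34 ± 0.59. It exceeded Pcdhb9, the highest beta gene, in 11 of 12 animals, by 1.22 ± 0.13 times on average. Among the gamma genes with an exon length, the lowest were Pcdhgb5 with 1.55 ± 0.28 and Pcdhga1 with 1.27 ± 0.14 CPM per kb, which were above most alpha genes. Pcdhgb8, which has no exon length here and so no place in this order, was read at 0.330 to 0.881 CPM, from 9 to 25 counts per library.

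**Figure D1:**
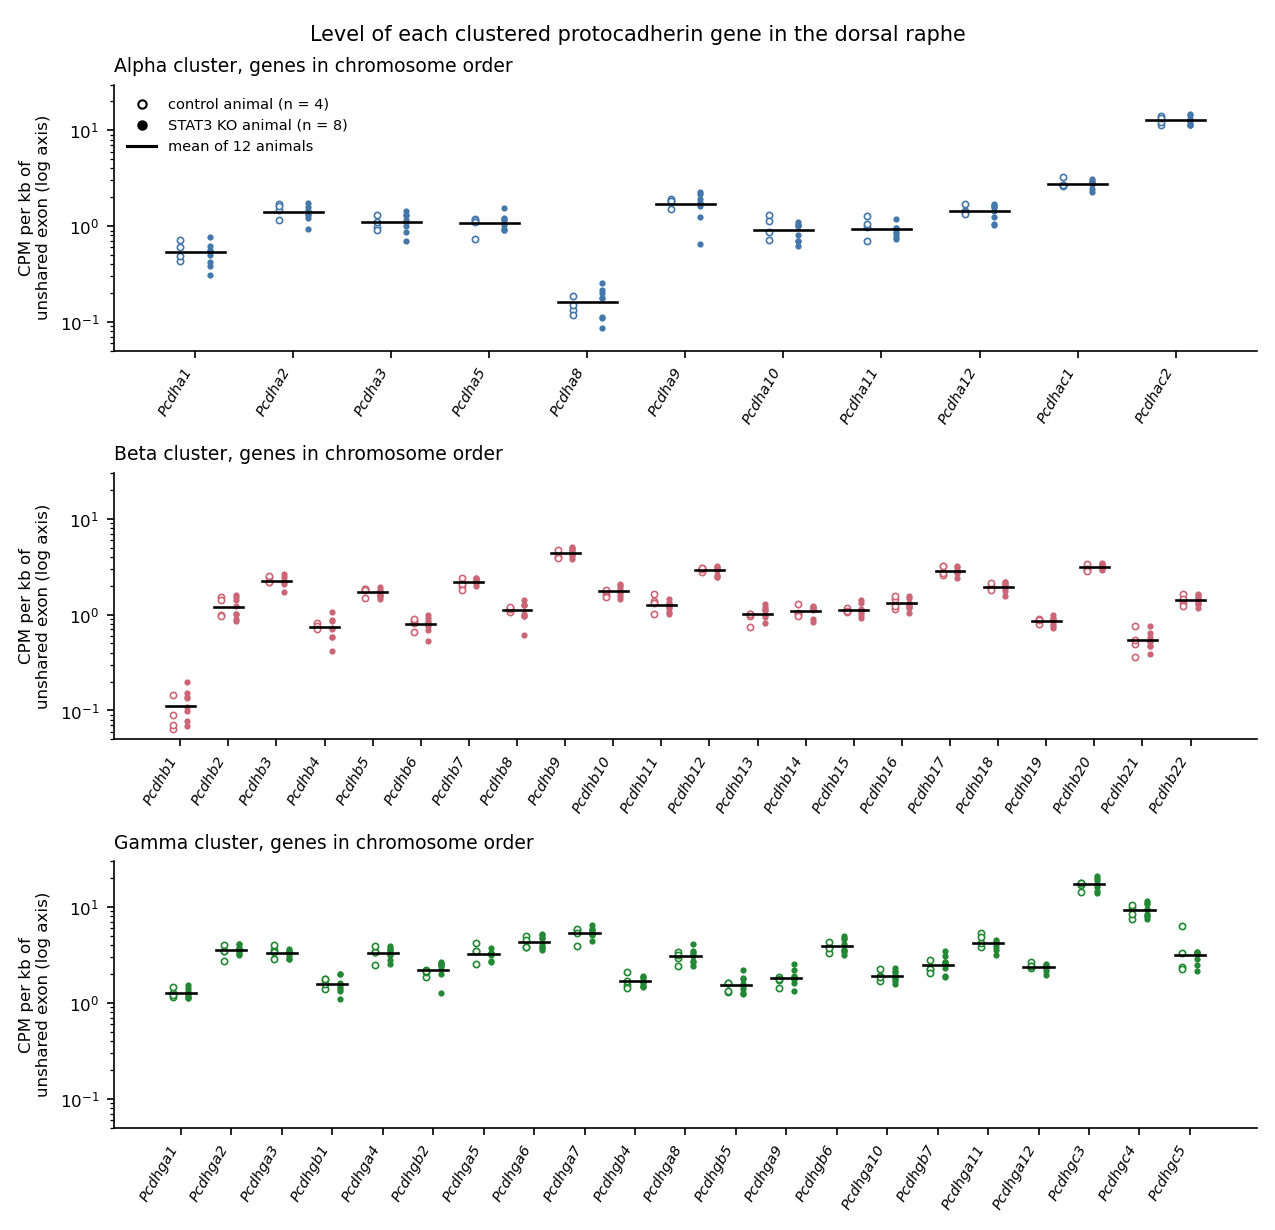
Level of 54 clustered protocadherin genes in CPM per kilobase of unshared exon on a log axis, in chromosome order within each cluster. Open points are the 4 controls, filled points the 8 KO mice and bars the mean of 12 animals. Pcdhac2, Pcdhgc3 and Pcdhgc4 stand above the rest of their clusters at 9.25 to 17.2 CPM per kb, and Pcdha8 and Pcdhb1 lie lowest.

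As a share of reads, the family was small. All 59 genes together took 0.0363% to 0.0477% of the counts on genes, of which the gamma cluster held 45.4% to 52.6%, the beta cluster 30.3% to 37.4% and the alpha cluster 14.5% to 17.5%. The 5 C-type genes held 27.2% to 31.6% of the family's counts. Within the alpha cluster Pcdhac2 alone held 53.2% to 59.1% of the counts. Within the gamma cluster Pcdhgc3 held 19.5% to 22.5% and Pcdhgc4 11.2% to 13.8%. Pcdhgc5 held 7.22% of the gamma counts in control 4 and 2.73% to 4.11% in the other 11 animals.

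The comparison of genotypes set deletion of both Stat3 alleles in serotonergic cells against deletion of a single allele in controls. It asked whether the levels of these genes differed. It was made with edgeR's two-sided quasi-likelihood test over the 15453 genes that passed its expression filter, which 54 of the 59 members did (11 alpha, 21 beta and 22 gamma genes). The 4 alpha rows at or near 0 and Pcdhb1 did not pass. No member passed the test. At an adjusted p below 0.05 there were 0 of 54 members, as for all genes tested (0.0%). At an unadjusted p below 0.05 there were also 0 of 54, where the share over all genes was 7.66% (3.61% higher and 4.05% lower in the KO), and 0 of 54 had an exact permutation p below 0.05 over the splits of the animals, against 7.1% of all genes. DESeq2 called 0 of the 56 members it tested, against 0.03% of all genes. For 0 of 54 members did the values of the genotypes separate without overlap, in either direction, against 0.207% of all genes higher and 0.239% lower in KO mice. The level was higher in KO mice for 25 of 54 members (46.3%, against 49.4% of all genes).

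The differences were small in all clusters. The alpha genes had a median log2 fold change (KO over control) of -0.075, with 3 genes above and 8 below 0, the beta genes of -0.006, with 10 above and 11 below, and the gamma genes of 0.023, with 12 above and 10 below. With 1 animal left out, 2 to 6 alpha, 7 to 14 beta and 9 to 15 gamma genes were above 0, and the median turned sign in each cluster. Without control 4 or without STAT3 KO 5 there were 6 of 11 alpha genes above 0, with a median of 0.0055 or 0.0041. Over all genes tested the median was -0.0011. The 95% confidence interval of the log2 fold change had a median half-width of 0.26, equal to 1.20-fold, and lay within 0.5 of 0 for 48 of 54 members. The exceptions were Pcdha1, Pcdha8, Pcdha9, Pcdha10, Pcdhgb8 and Pcdhgc5, and the narrowest interval, with a half-width of 0.15, was that of Pcdhb20.

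**Figure D2:**
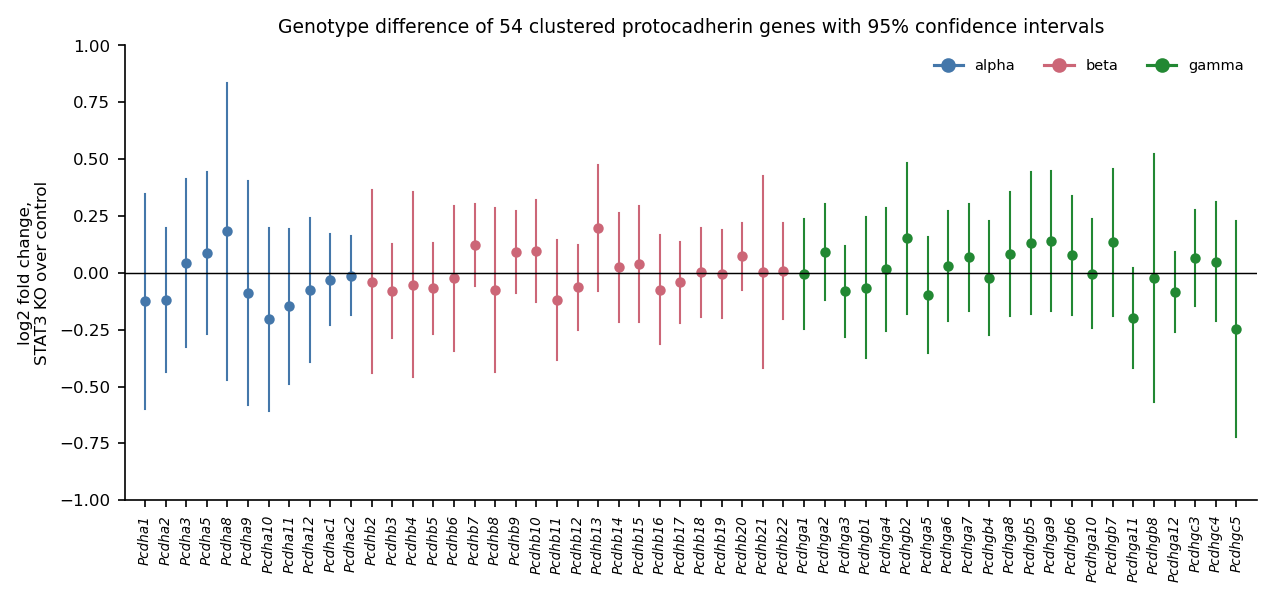
Log2 fold change of STAT3 KO over control mice (points) with its 95% confidence interval (lines) from edgeR's quasi-likelihood fit, for the 54 clustered protocadherin genes that passed the expression filter, in chromosome order. All 54 intervals include 0, and the estimates lie between -0.25 (Pcdhgc5) and 0.20 (Pcdhb13).

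The cluster sums of the genotypes overlapped. The alpha genes summed to 62.1, 76.7, 68.3 and 71.4 CPM in controls 13, 4, 3 and 11, and to 58.2 to 78.8 CPM (median 70.2) in the 8 KO mice. The beta genes summed to 144, 141, 149 and 138 CPM in the controls and to 126 to 154 CPM (median 150) in KO mice. The gamma genes summed to 178, 230, 216 and 225 CPM in the controls and to 176 to 243 CPM (median 214) in KO mice. In each cluster the controls lay within the range of the KO mice. The log2 difference of the mean log2 sums was -0.036 for alpha, 0.00078 for beta and 0.017 for gamma, below the SD between controls of 0.13, 0.049 and 0.17. The animals with the lowest totals over the family were STAT3 KO 6 with 361 CPM and control 13 with 384 CPM, and the highest was STAT3 KO 7 with 475 CPM.

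**Figure D3:**
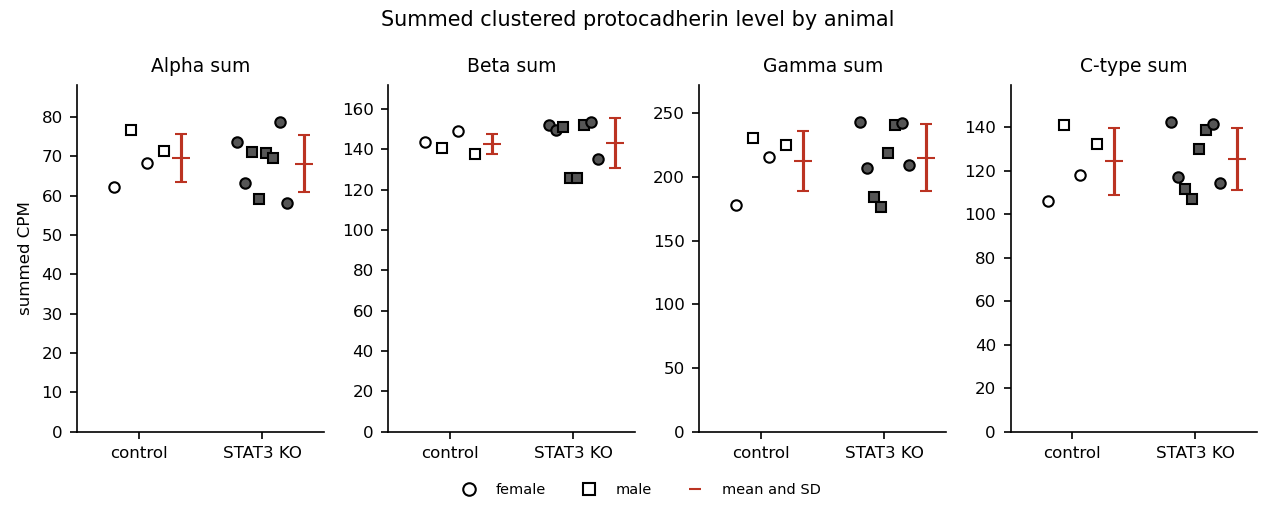
Summed CPM of the alpha, beta, gamma and C-type genes in each of 12 animals (circles females, squares males, open controls, filled STAT3 KO), with the mean and SD of each genotype in red. The genotypes overlap in all 4 panels, with gamma sums of 178 to 230 CPM in controls and 176 to 243 CPM in KO mice.

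Of the C-type genes, Pcdhac2 was read at 34.7, 42.7, 36.9 and 41.0 CPM in controls 13, 4, 3 and 11, and at 34.4 to 45.2 CPM (median 38.0) in KO mice. All controls lay within the range of the KO mice. The log2 fold change of Pcdhac2 was -0.012 (standard error (SE) 0.081, 95% interval -0.18 to 0.16, edgeR adjusted p = 0.992). Pcdhgc3 was read at 36.9, 45.6, 43.6 and 45.2 CPM in controls and at 36 to 54.2 CPM (median 45.0) in KO mice. Its log2 fold change was 0.065 (SE 0.10, edgeR adjusted p = 0.934). Pcdhgc4 was read at 21.7, 28.1, 24.7 and 30.4 CPM in controls and at 21.6 to 33.6 CPM (median 26.2) in KO mice, with a log2 fold change of 0.050 (SE 0.12). For both genes control 13 was the lowest control and lay near the lowest KO mice. Pcdhac1 was read at 6.72 to 8.29 CPM in controls and 5.88 to 8.03 CPM in KO mice, with a log2 fold change of -0.030 (SE 0.095).

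**Figure D4:**
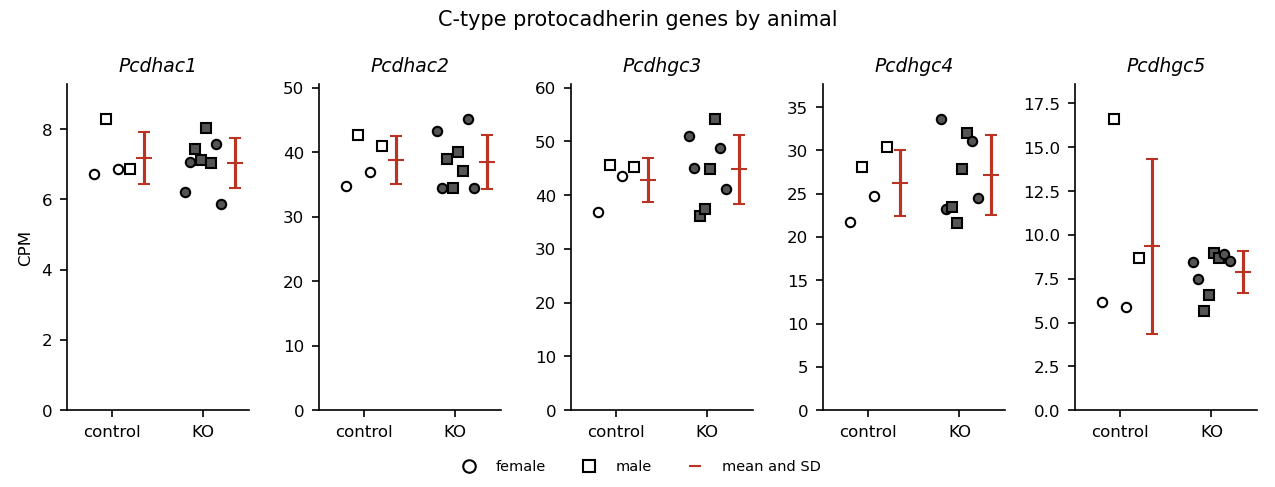
CPM of the 5 C-type protocadherin genes in each animal (circles females, squares males, open controls, filled STAT3 KO), with the mean and SD of each genotype in red. The genotypes overlap for every gene, and control 4 is highest for Pcdhgc5 with 16.6 CPM.

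Pcdhgc5, a C-type gene known from the postnatal forebrain, had the lowest log2 fold change of all members at -0.25 (SE 0.22, 95% interval -0.72 to 0.23, edgeR adjusted p = 0.862, exact permutation p = 0.661). It was read at 6.18, 16.6, 5.90 and 8.71 CPM in controls 13, 4, 3 and 11, and at 5.68 to 8.97 CPM (median 8.46) in KO mice. Control 4, the library with 314 CPM of forebrain markers, had 457 counts, and the other 11 libraries had 150 to 266. Without control 4 the log2 fold change turned to 0.19, and without control 4, STAT3 KO 8 and STAT3 KO 16 together it was 0.27, with no call in either fit. The part of forebrain tissue in the level of Pcdhgc5 was not tested.

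**Figure D5:**
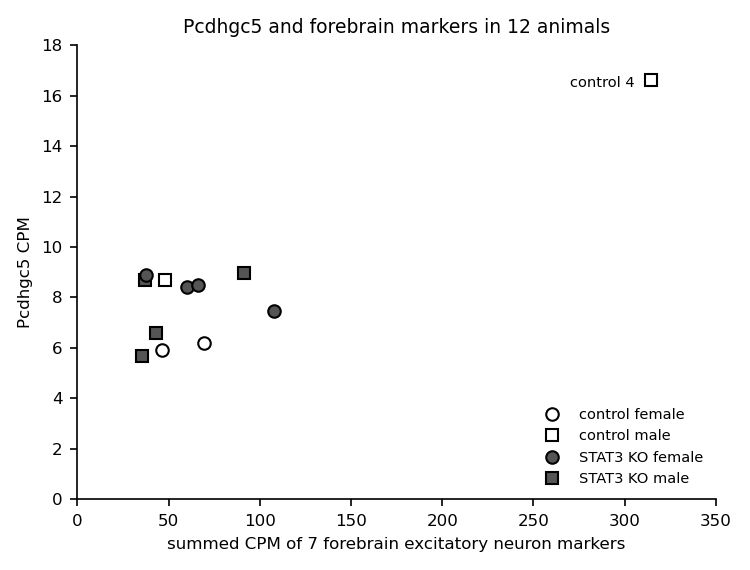
Pcdhgc5 in CPM against the summed CPM of 7 forebrain excitatory neuron markers in the 12 animals (circles females, squares males, open controls, filled STAT3 KO). Control 4 is at 16.6 CPM of Pcdhgc5 and 314 CPM of the markers, and the other 11 animals lie at 5.68 to 8.97 CPM and 35.6 to 108 CPM.

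Outside the C-type, the alpha genes with the highest and lowest fold changes were Pcdha8 with a log2 value of 0.18 (SE 0.31) and Pcdha10 with -0.20 (SE 0.19). Pcdha8 had 0.364 ± 0.074 CPM in controls (SD, n = 4) and 0.414 ± 0.147 CPM in KO mice (SD, n = 8), close to the floor. In the beta cluster Pcdhb13 had the highest value at 0.20 (SE 0.13) and Pcdhb11 the lowest at -0.12 (SE 0.12). Pcdhb13 was read at 3.59, 2.76, 3.74 and 3.78 CPM in controls and at 3.02 to 4.76 CPM in KO mice, of which 5 lay above all controls. In the gamma cluster Pcdhgb2 was highest at 0.15 (SE 0.16), with 5.28 ± 0.38 CPM in controls and 5.87 ± 1.20 CPM in KO mice. The adjusted p of all 54 members in edgeR was 0.687 or above.

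The lowest unadjusted p among the members was that of Pcdhga11. It was read at 10.1, 14.3, 11.2 and 12.7 CPM in controls 13, 4, 3 and 11, and at 8.35 to 11.9 CPM in KO mice, so that 2 controls lay above all KO mice and 2 within their range. The log2 fold change was -0.20 (SE 0.10, 95% interval -0.42 to 0.020, unadjusted p = 0.072 and edgeR adjusted p = 0.687, exact permutation p = 0.115).

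The spread between animals of a genotype, as the SD in percent of the mean CPM, had a median of 19.9% in alpha, 11.6% in beta and 15.2% in gamma genes. Counting alone, at the depth of each gene, would give a median of 11.5%, 7.71% and 6.63%, so the clusters differ in depth as well. Among the C-type genes the spread was 10.1% for Pcdhac1, 10.4% for Pcdhac2, 13.1% for Pcdhgc3, 16.3% for Pcdhgc4 and 34.9% for Pcdhgc5. The value of Pcdhgc5 was the highest of the 54 members and rested on control 4, without which it was 16.9%. Pcdha8 followed with 32.5%, where its mean of 11 counts per library gives 30.2% from counting alone. Pcdhb20 had the lowest spread, at 6.63% against 5.69% from counting.

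Females and males were compared with the same test. At an adjusted p below 0.05 there were 0 of 54 members, against 0.0841% of all genes. At an unadjusted p below 0.05 there was 1 member, Pcdhb14 (1.85% of the members, against 7.2% of all genes), with a log2 difference of males over females of -0.23 (edgeR adjusted p = 0.656). Its unadjusted p in edgeR was 0.065 without control 3, 0.053 without STAT3 KO 6 and 0.063 without STAT3 KO 15. Pcdhb14 was read at 8.90 and 11.3 CPM in the 2 control females and 8.36 and 9.02 CPM in the 2 control males, and at 10.1 to 10.6 CPM in the 4 STAT3 KO females and 7.32 to 10.4 CPM in the 4 STAT3 KO males. The level was higher in males for 16 of 54 members (29.6%, against 49.6% of all genes), namely for 8 of 11 alpha, 3 of 21 beta and 5 of 22 gamma genes. With 1 animal left out, that count ranged from 11 without control 13 to 27 without STAT3 KO 6. The clusters ranged from 5 (without control 13) to 10 (without STAT3 KO 6 or 7) for alpha, from 1 (without STAT3 KO 10, 14 or 5) to 6 (without STAT3 KO 6 or 15) for beta and from 3 (without control 13) to 11 (without STAT3 KO 6 or 7) for gamma genes. The beta genes summed to 147 ± 6.81 CPM in females and 139 ± 11.6 CPM in males (SD, n = 6 each).

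The genotype difference was also compared between the sexes, as an interaction. At an adjusted p below 0.05 there were 0 of 54 members (0.0% of all genes), and at an unadjusted p below 0.05 there were 3 (5.56%, against 5.49% of all genes), which were Pcdhgc5, Pcdhga4 and Pcdhga11. With 1 KO mouse left out this count ranged from 2 (without STAT3 KO 10, 8, 6 or 7) to 7 (without STAT3 KO 14). The share over all genes was not taken in those fits. Fits without a control leave 1 animal in a control group, and their counts are not given. For all 22 gamma genes the difference of STAT3 KO over control was lower in males than in females, with a median interaction of -0.31 on the log2 scale, where 50% of all genes were below 0. The count was 17 of 22 without control 13 and 20 to 22 without any other animal. The gamma sums were 178 and 216 CPM in the 2 control females and 225 and 230 CPM in the 2 control males, and 225 ± 20 CPM in STAT3 KO females and 205 ± 30 CPM in STAT3 KO males (SD, n = 4 each). Each control value thus rests on 2 animals, and the gamma genes share constant exons and regulators and are no replicates of each other.

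Pcdhgc5 had the strongest interaction at -1.22 (SE 0.32, unadjusted p = 0.0020, edgeR adjusted p = 0.898). It was at 6.18 and 5.90 CPM in control females and 16.6 and 8.71 CPM in control males, and at 8.31 ± 0.61 CPM in STAT3 KO females and 7.48 ± 1.60 CPM in STAT3 KO males (SD, n = 4 each). Without control 4 it was -0.68, and leaving out control 11 gave -1.60. Each of these fits leaves 1 control male, control 11 or control 4, which is assumed to vary like the other groups. Only the size of the interaction is therefore given for fits without a control. Pcdhga11 had an interaction of -0.46 (unadjusted p = 0.022) and Pcdhga4 of -0.50 (unadjusted p = 0.049), both with an adjusted p of 0.91 in edgeR. Without control 13, 4, 3 or 11 the interaction of Pcdhga11 was -0.40, -0.38, -0.53 or -0.53. That of Pcdhga4 was -0.31, -0.62, -0.75 or -0.37. In edgeR the unadjusted p of Pcdhga4 was 0.079 to 0.085 without STAT3 KO 10, 8, 6 or 7.

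Genes that act on or beside the clusters were described from lists. The 23 regulators of clustered protocadherin choice and silencing, among them Ctcf, the cohesin subunits, Smchd1 and Setdb1, had a median log2 fold change of 0.0034, with 0 at an unadjusted p below 0.05. Of 21 binding partners, proteases and effectors, 0 passed at an adjusted p below 0.05, while 2 reached an unadjusted one (9.52%, against 7.66% of all genes), both lower in KO mice, as were 4.05% of all genes. They were Cyfip2 and Nckap1, subunits of the WAVE complex that builds branched actin at the membrane. Nckap1 had a log2 fold change of -0.083 (SE 0.033, unadjusted p = 0.022 and edgeR adjusted p = 0.615) and Cyfip2 of -0.092 (SE 0.039, adjusted p = 0.620). The median of the 21 was -0.041, and the 7 markers common to all neurons summed to 6335 to 6558 CPM in controls and 5785 to 6436 CPM in KO mice. Whether these moved together was not tested.

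The 12 non-clustered protocadherin genes, which encode related adhesion proteins at other sites of the genome, had a median log2 fold change of 0.016. Of these, 0 passed at an adjusted p below 0.05, while 2 reached an unadjusted one (16.7%, against 7.66% of all genes). Pcdh7 was at 117 ± 12.3 CPM in controls (SD, n = 4) and 99.8 ± 8.67 CPM in KO mice (SD, n = 8), a log2 fold change of -0.23 (SE 0.072, edgeR adjusted p = 0.615). Pcdh9 had a log2 fold change of -0.22 (SE 0.098, adjusted p = 0.646). The 7 genes beside or between the clusters, such as Taf7 and Hdac3, had a median of 0.034 and 0 at an unadjusted p below 0.05.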

How the data were processed

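RNA from the DR of 12 mice was sequenced by the authors as single reads of 75 bases and mapped to mm10 with STAR 2.5.0b, per the submitters' processing notes, which also name DESeq2 1.6.3. The deposited tables hold, for each gene symbol, the raw counts without normalisation. The read counter, annotation and use of strand are not given in the sources used here. The lines for reads in no gene (13.4% to 15.3%) or in more than 1 gene were left out of library sizes. Genotype and sex were taken from the labels, which name no batch. Differences between libraries were 5.24 to 29.4 times those of counting over 66 pairs, so none was a copy.

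Counts were analysed with edgeR 4.0.16 (TMM normalisation, filterByExpr by genotype with 10 counts per library and 15 in total, quasi-likelihood test, Benjamini-Hochberg adjustment over 15453 genes), limma 3.58.1 and DESeq2 1.42.0 in R 4.3.3, and Python 3.11.15. CPM used TMM. The two-sided exact permutation test compared mean log2 CPM (prior count 2) over 495 splits, with a smallest p of 0.00202. P values set the difference between groups against the spread between these animals. Exon lengths were those of GENCODE vM21 transcripts with a RefSeq match for GRCm38. Tests were tried on simulated data with 200 changed genes.

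The alternatives were RLE factors, other filters, DESeq2, limma-voom, sex as a covariate, other library sizes, a prior count of 0.5 and each animal left out. Leaving out 3 libraries high in forebrain or choroid plexus markers, and the ranges over animals left out for the spread, for counts at an unadjusted p and for counts of members above or below 0, were chosen after seeing the data. The genes and lists were chosen with earlier results of these data known. The text names the C-type genes, in each cluster the 4 highest and 2 lowest per length and those with the extreme fold changes, members at 0, members with an unadjusted p below 0.05, and members with an animal far from its group. Pcdhb7, Pcdhb4, Pcdhb6, Pcdhb22 and Pcdhgb8 were named after their values were seen. Wapl and Diaph1 of the lists stand in the files under the older symbols Wapal and Diap1.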

Additional observations from a re-analysis of the deposited data

Results flagged for a closer look

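In 5 of the 114 groups examined (the 54 members and the cluster sums, each in both genotypes), 1 animal stood apart from its group by Dixon's criterion. About 5.7 would be flagged by chance, so the number is near that.

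Pcdha5 was at 1.73 CPM in control 13, below the 2.62 to 2.76 CPM of the other 3 controls. Pcdhac1 was at 8.29 CPM in control 4, above the 6.72 to 6.87 CPM of the others. Pcdhb13 was at 2.76 CPM in the same animal, below 3.59 to 3.78 CPM, and without it the gene's log2 fold change was 0.10. Pcdhb5 was at 5.32 CPM in control 11, below the 6.35 to 6.58 CPM of the others. Pcdhgb2 was at 3.24 CPM in STAT3 KO 6, below the 5.07 to 6.87 CPM of the other 7 STAT3 KO mice, and without that animal its log2 fold change was 0.24. STAT3 KO 6 also had the lowest total over the family. None of these members had an adjusted p below 0.05 with or without the animal named, in edgeR's quasi-likelihood test.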

How the results depend on the processing

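In the genotype comparison 0 members had an adjusted p below 0.05 under any alternative, and the lowest adjusted p of a named member was 0.418 with edgeR's test. The count of members with an unadjusted p below 0.05 ranged from 0 to 1 when 1 animal was left out. The shares over all genes in those fits were not taken. The member was Pcdhga11 without control 13 or without STAT3 KO 7, Pcdhb7 without control 4 and Pcdhgb2 without STAT3 KO 6. At an adjusted p below 0.05 the counts for the interaction with sex and for sex stayed at 0. For the interaction this leaves aside fits without a control, which keep 1 animal in a control group. At an unadjusted p below 0.05 the count for the interaction ranged from 2 to 7 (without STAT3 KO 14) when 1 KO mouse was left out. For sex it ranged from 0 (without STAT3 KO 6 or 15) to 3 (without control 13, STAT3 KO 14 or STAT3 KO 7). Here too the shares over all genes were not taken. Medians and summed differences moved by less than the SD between animals of a genotype, but all of them turned sign with 1 animal left out. The median log2 fold change then ranged from -0.11 (without STAT3 KO 14) to 0.0055 (without control 4) for alpha, from -0.042 (without STAT3 KO 7) to 0.034 (without STAT3 KO 6) for beta and from -0.019 (without control 13) to 0.087 (without control 11) for gamma genes. The summed differences ranged from -0.089 to 0.012 for alpha, -0.017 to 0.027 for beta and -0.065 to 0.058 for gamma genes on the log2 scale. The beta median was 0.00077 with no filter beyond 1 count. The median gamma fold change was 0.12 without the 3 libraries high in forebrain or choroid plexus markers.

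Of 27 named members fitted, 10 kept the sign of the log2 fold change under every alternative. With limma-voom it turned to 0.015 for Pcdhac2, 0.021 for Pcdhga1 and 0.0020 for Pcdhgc5. Without the 3 libraries named above it turned to -0.12 for Pcdha8, 0.036 for Pcdhac1, 0.062 for Pcdhac2, -0.033 for Pcdhb14, 0.0043 for Pcdhb17, -0.040 for Pcdhb21, 0.066 for Pcdhga1, -0.0028 for Pcdhga6 and 0.27 for Pcdhgc5. With 1 animal left out at a time, signs turned within these ranges: -0.23 to 0.018 for Pcdha1, -0.12 to 0.0055 for Pcdha12, -0.040 to 0.15 for Pcdha5, -0.17 to 0.033 for Pcdha9, -0.059 to 0.049 for Pcdhac1, -0.058 to 0.039 for Pcdhac2, -0.23 to 0.0033 for Pcdhb11, -0.023 to 0.13 for Pcdhb14, -0.094 to 0.013 for Pcdhb17, -0.14 to 0.22 for Pcdhb21, -0.049 to 0.069 for Pcdhga1, -0.093 to 0.12 for Pcdhga4, -0.018 to 0.11 for Pcdhga6, -0.045 to 0.14 for Pcdhga7, -0.026 to 0.13 for Pcdhgc4 and -0.41 to 0.19 for Pcdhgc5. The cause of these turns was not tested.

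No paired analysis was possible because the genotypes share no animal number. With 4 controls, the intervals given set the precision of the genotype differences, and whether reads on exons shared between genes were counted was not tested.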
